A study of Mus musculus with 2 samples.

Results

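The miR-26 family of mouse consists of 3 microRNA genes, Mir26b, Mir26a-2 and Mir26a-1, each carried by a gene of the Ctdsp phosphatases. They were taken by symbol from the 1973 microRNA genes counted in small RNA libraries of whole liver, and all 3 members were found. The donors were embryos of the mouse strain B6NCrl collected at embryonic day 14.5, and the labels give no genotype or treatment. There was 1 group of 2 libraries, replicate 1 and replicate 2, so no condition could be compared. Each sample is labelled as 1 liver, yet its sex is given as pooled and both carry 1 donor ID, which leaves their independence as animals uncertain. P-values compare the difference between these samples with counting error alone, and that difference may be technical. They estimate no spread between samples. Replicate 1 had 6395680 reads and replicate 2 had 8068090. Same-strand counts at microRNA genes totalled 2353946 in replicate 1 and 3132763 in replicate 2, and levels are CPM relative to these totals.

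MicroRNAs are cut from a hairpin precursor, and an arm of the hairpin is loaded into a silencing complex that pairs with messenger RNAs mainly through its seed, bases 2 to 8. miR-26 is a widely expressed family known to restrain cell growth, with the chromatin modifier Ezh2 and cyclins among its described targets, and it is often reduced in liver cancer. Its hosts encode small phosphatases that act on the tail of RNA polymerase II and help to keep neuronal genes silent outside the nervous system. A microRNA in an intron is often transcribed together with its host.

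The sequences decide which reads could be assigned to which member, and are shown for that reason. The mature products, from RefSeq on GRCm38.p6, are written 5′ to 3′ with the seed in capitals.
mmu-miR-26b-5p: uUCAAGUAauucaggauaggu
mmu-miR-26a-5p (Mir26a-1 and Mir26a-2): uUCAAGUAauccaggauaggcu
mmu-miR-26b-3p: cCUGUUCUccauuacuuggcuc
mmu-miR-26a-2-3p: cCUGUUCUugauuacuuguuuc
mmu-miR-26a-1-3p: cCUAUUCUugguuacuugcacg
The 5p seed UCAAGUA was shared by the 3 members and by no other mouse gene in the RefSeq sequence table. Counted from the 5′ end, miR-26a-5p and miR-26b-5p differed by C11U and C21U over 21 compared bases (the miR-26a base first), both outside the seed. The 3p products were less alike. Mir26a-1 differed from Mir26a-2 at 6 of 22 bases, including A4G inside the seed, so that its 3p seed CUAUUCU stood in no other gene of the table. The 3p seed CUGUUCU of Mir26b and Mir26a-2 was also that of Mir6932 and Mir7039, which were near or at 0. Mir6932 had 1 count in replicate 1 and 2 counts in replicate 2, and Mir7039 had 0 in both.

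The 3 hairpins are shown with both mature arms in capitals, to place the stretch that the miR-26a copies have in common.
Mir26b: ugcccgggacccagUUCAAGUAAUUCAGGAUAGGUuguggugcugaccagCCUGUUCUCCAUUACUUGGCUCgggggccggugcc
Mir26a-2: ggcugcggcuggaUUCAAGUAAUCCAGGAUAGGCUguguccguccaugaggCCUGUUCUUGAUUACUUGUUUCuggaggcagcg
Mir26a-1: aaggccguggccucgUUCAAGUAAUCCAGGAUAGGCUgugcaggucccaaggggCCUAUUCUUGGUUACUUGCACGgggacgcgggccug
The longest run common to Mir26a-1 and Mir26a-2 was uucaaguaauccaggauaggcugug, 25 bases that hold the whole 22-base 5p product and the 3 bases after it. A 5p read of either copy that lies within this run matches both loci, and reads that map to more than 1 place were not counted at any gene. Of the windows of 22 bases, 4 of 69 in Mir26a-1 and 4 of 63 in Mir26a-2 stood in another annotated hairpin, all of them inside that run. In Mir26b 0 of 64 did, and its longest run in common with a miR-26a copy was 11 bases, guucaaguaau with Mir26a-1. The counts of the miR-26a copies therefore leave out their 5p product wherever it was read in this form. They are lower limits for these genes and were treated as uncertain, whereas no such overlap with another annotated hairpin was found for Mir26b. The genome sequence was not used here, so matches outside annotated hairpins were not tested.

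The positions of the members in their hosts were alike. Mir26b lies on chromosome 1 from 74394310 to 74394394 in intron 4 of Ctdsp1, which is 564 bases long. Mir26a-2 lies on chromosome 10 from 126995530 to 126995613 in intron 5 of Ctdsp2, which is 1946 bases long. Mir26a-1 lies on chromosome 9 from 119031796 to 119031885 in intron 5 of Ctdspl, which is 3283 bases long. Introns are numbered in the protein-coding transcript with the most exons. In all 3 hosts the exon before this intron had 57 bases and the exon after it 93 bases, and each microRNA was on the host's strand. The hairpin began 234 bases into the intron in Ctdsp1, 1621 bases in Ctdsp2 and 1543 bases in Ctdspl. The distance from the hairpin to the next exon was 245 bases in Ctdsp1 and 241 bases in Ctdsp2, against 1650 bases in Ctdspl. One detail of the annotation departs from a plain intronic position. Short Ctdsp2 transcripts begin at 126995613, the last base of the Mir26a-2 hairpin, so that 1 base of it is exonic there. The fourth Ctdsp gene, Ctdspl2, spans no annotated microRNA. Ctdsp2 also spans Mir546 (126998440 to 126998560), a gene outside the family that had 1 count in each library.

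**Figure D1:**
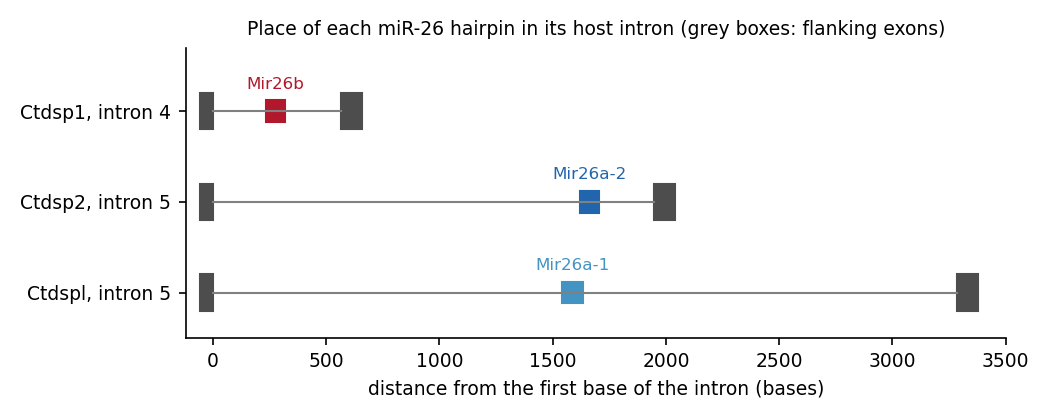
Each line is the host intron of a miR-26 gene, drawn to scale as distance in bases from the intron's first base, with flanking exons as grey boxes and the hairpin as a coloured box. The hairpins of Mir26b and Mir26a-2 end 245 and 241 bases before the next exon, and that of Mir26a-1 ends 1650 bases before it.

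By reads that map to 1 place, Mir26b was among the microRNA genes with the most counts in the fetal liver. Reads of multiple mapping, 34.0% of all reads in replicate 1 and 33.1% in replicate 2, are left out of these ranks. Mir26b had 90078 counts in replicate 1 and 122070 in replicate 2. This was 38267 CPM (95% Clopper-Pearson interval 38022 to 38513) in replicate 1 and 38966 CPM (38752 to 39181) in replicate 2, with a mean of 38616 ± 494.1 CPM (SD, n = 2). It held rank 4 in each library by same-strand counts, rank 5 by counts regardless of strand and rank 5 per base of hairpin length. The intervals cover counting error only, since reads copied by PCR are not independent molecules.

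The miR-26a copies were detected at low levels by the reads that map to 1 place. Mir26a-2 had 138 counts, 58.6 CPM (49.3 to 69.3), in replicate 1 and 151 counts, 48.2 CPM (40.8 to 56.5), in replicate 2. Mir26a-1 had 47 counts, 19.97 CPM (14.7 to 26.6), in replicate 1 and 53 counts, 16.9 CPM (12.7 to 22.1), in replicate 2. Their means were 53.4 ± 7.37 CPM and 18.4 ± 2.16 CPM (SD, n = 2), at ranks 213 and 261. The values of the 3 members did not overlap, and their order was the same in both libraries.

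**Figure D2:**
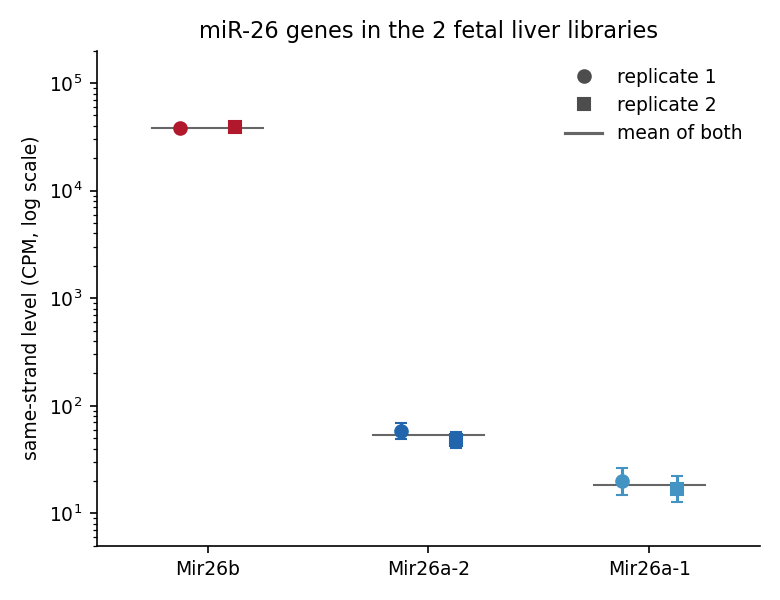
Same-strand level in CPM on a log axis for the 3 members, with circles for replicate 1, squares for replicate 2, bars for the 95% Clopper-Pearson interval and a line at the mean of both. Mir26b sits near 38616 CPM in both libraries, Mir26a-2 at 58.6 and 48.2 CPM and Mir26a-1 at 19.97 and 16.9 CPM.

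Nearly all counts of the family lay at Mir26b. It took 99.8% of the counts of the 3 members in each library, and the miR-26a copies together took 0.205% (0.177 to 0.237) in replicate 1 and 0.167% (0.145 to 0.191) in replicate 2. Mir26b had 653 times the counts of Mir26a-2 in replicate 1 (exact interval 552 to 777) and 808 times in replicate 2 (689 to 955). The hairpins are 85 and 84 bases long, and per base these ratios were 645 and 799. Against Mir26a-1, with a hairpin of 90 bases, the ratio per base was 2029 in replicate 1 and 2439 in replicate 2. These ratios compare what could be counted at 1 place, not the amounts of miR-26b and miR-26a.

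The miR-26a copies both lose the same shared stretch, so their ratio compares only the reads that remain at each. Whether these reads stand for the output of each locus to the same degree was not tested. Mir26a-2 had 2.94 times the counts of Mir26a-1 in replicate 1 (2.09 to 4.18) and 2.85 times in replicate 2 (2.07 to 3.97). Per base of hairpin the ratios were 3.15 and 3.05. Mir26a-1 thus held 25.4% (19.3 to 32.3) and 26.0% (20.1 to 32.6) of the counts of both copies, and the difference between the libraries was smaller than the counting error. Which arm or end variant these reads came from is not given by counts per gene.

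No read was counted on the opposite strand at any member in either library. The upper limit that 0 counts allow is 3 counts, equal to 1.27 CPM at the depth of replicate 1 and 0.958 CPM at that of replicate 2. The counts of the members were therefore the same whether or not strand was used, while the library totals, and the counts of some other genes, were larger without strand.

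Between the libraries Mir26b was nearly equal, while the ratios of the miR-26a copies were farther from 1 and imprecise. In bulk tissue, fewer cells of a type and less RNA per cell cannot be told apart, and the test compares these libraries, not conditions. The ratio of replicate 2 over replicate 1 was 1.02 for Mir26b (exact interval 1.01 to 1.03). Its adjusted p was 0.000151 by a two-sided exact binomial test, adjusted after Benjamini and Hochberg over the 332 genes that reached 10 counts in both libraries. By other scalings this call was lost, with an adjusted p of 0.871 by TMM and 0.603 by DESeq2 size factors under the same exact binomial test. By the same test 41.9% of the genes tested differed at an adjusted p under 0.05, 23.5% being higher in replicate 2 and 18.4% in replicate 1. Of the 15 genes with over 100000 counts in sum, 14 differed. Only 29 of the 332 genes had a log2 ratio closer to 0 than that of Mir26b.

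For the miR-26a copies no difference passed the test. Mir26a-2 had a ratio of replicate 2 over replicate 1 of 0.822 (0.648 to 1.04, adjusted p = 0.184 by the exact binomial test). Mir26a-1 had 0.847 (0.561 to 1.28, adjusted p = 0.572 by the exact binomial test). Mir26a-2 had 289 counts in sum and Mir26a-1 had 100, and both intervals span a ratio of 1. In all, 1 of 3 members was called, higher in replicate 2, against the background of 23.5% of genes called in that direction. The median log2 ratio over the members was -0.24, which is the imprecise value of Mir26a-1 alone. Over all 332 genes it was 0.03, with a median absolute value of 0.16.

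**Figure D3:**
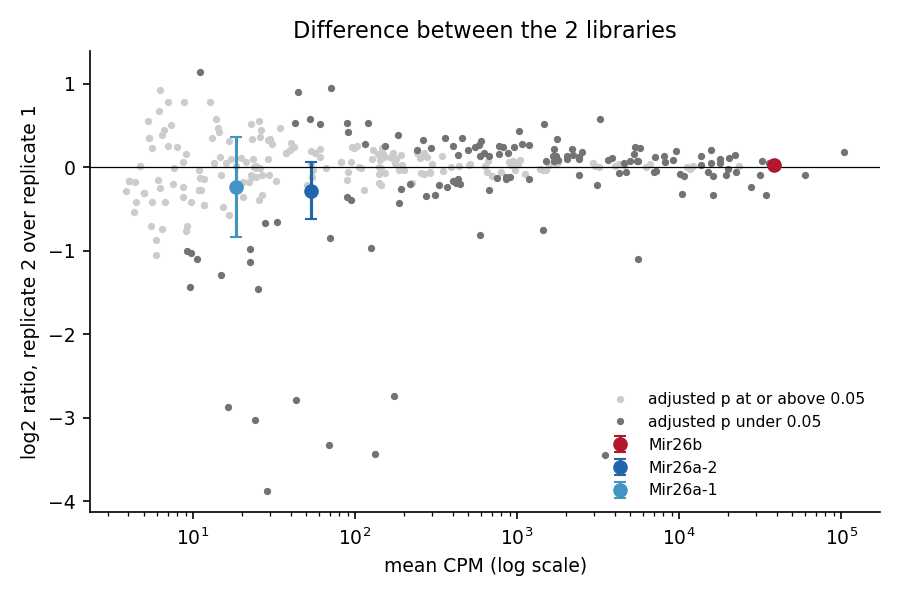
Log2 ratio of replicate 2 over replicate 1 against mean CPM on a log axis for the 332 genes tested, dark grey where the adjusted p was under 0.05. The members are coloured with 95% exact intervals, narrow around 0.03 for Mir26b and wide for Mir26a-2 and Mir26a-1. The points of the miR-26a copies lie below 0, and their intervals cross 0.

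Summed over the 3 members, the counts came to 38345 CPM in replicate 1 and 39031 CPM in replicate 2, or 3.87% ± 0.0485 of the same-strand counts (SD, n = 2). The sum leaves out miR-26a-5p reads within the shared run, so it is not the full level of the family. The ratio of the sums was 1.02 (1.01 to 1.03), which is that of Mir26b. Likeness of level was measured as the distance of log2 CPM over the 2 libraries. Nearest to Mir26b were Mir411 (39382 ± 1312 CPM, distance 0.049), Mirlet7g (35948 ± 832.1 CPM, distance 0.147) and Mir17 (32370 ± 1264 CPM, distance 0.363). Mir411 comes from the imprinted Dlk1-Dio3 region, Mirlet7g is a let-7 gene and Mir17 belongs to the growth-associated miR-17-92 cluster. Each of these, like Mir26b, was higher in replicate 2 by the exact binomial test, with adjusted p-values of 2.6e-26, 4.9e-12 and 1.5e-29. That direction was called for 23.5% of all genes tested. Nearness was measured over the same 2 libraries, so a like direction is partly built into the choice. Nearest to Mir26a-2 were Mir338, Mir181a-2 and Mir758, at 50.3 to 55.0 CPM. Nearest to Mir26a-1 were Mir292, Mir3066 and Mir6539, at 18.4 to 20.4 CPM. Of these, Mir181a-2 also shares its 5p product with another locus.

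A comparison with other families shows how far the layout of miR-26 was repeated. The family of miR-103 and miR-107 also lies in introns of related host genes, the Pank kinases of coenzyme A synthesis, with a pair of copies of the same mature product and a member of its own sequence. Mir107 had 1795 ± 76.6 CPM, while Mir103-2 had 113.9 ± 14.9 CPM and Mir103-1 7.02 ± 0.911 CPM (SD, n = 2). As in the miR-26 family, the copies that share a product were lower than the separate member in both libraries. Both miR-103 copies have an arm that stands in another hairpin, and reads of multiple mapping were not counted. Their place below Mir107 is therefore partly built into the counting rule, and the amounts of miR-103 and miR-107 were not compared. Mir107 was the only member called (1.06-fold higher in replicate 2, 1.02 to 1.11, adjusted p = 0.00912 by the exact binomial test). That direction was called for 23.5% of all genes tested. Mir107 also had the most counts of its family, 4097 in replicate 1 and 5792 in replicate 2. The miR-101 pair differs by sequence, and neither arm of either gene stood whole in another annotated hairpin. Shorter reads and matches elsewhere in the genome were not tested, nor was the cause of the unequal levels of this pair. Mir101b had 6966 ± 208.6 CPM and Mir101a 94.2 ± 18.1 CPM, and both were higher in replicate 1 by the exact binomial test, a direction called for 18.4% of all genes.

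**Figure D4:**
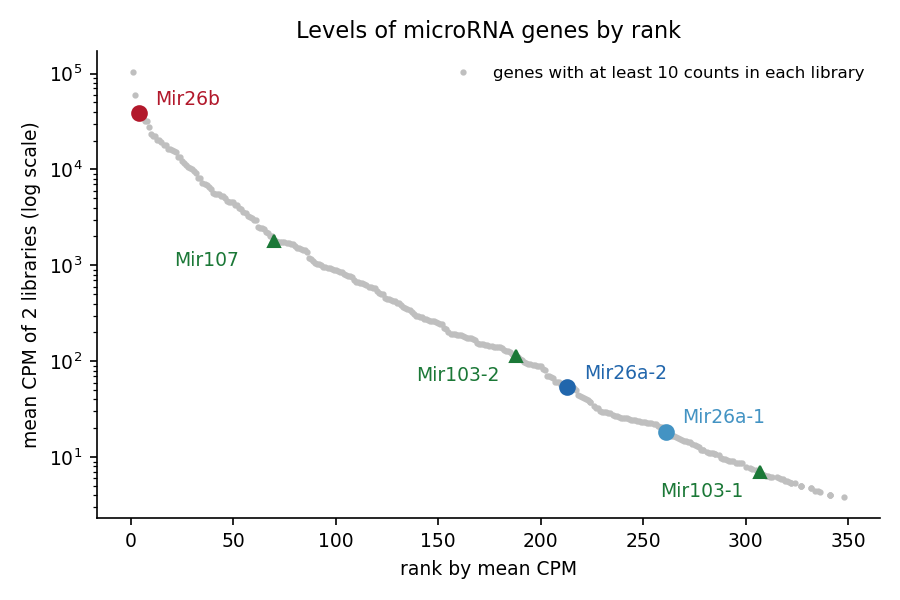
Mean CPM of the 2 libraries on a log axis against rank, with grey points for the 332 genes tested, circles for the miR-26 genes and triangles for the Pank family genes. Mir26b stands at rank 4, Mir26a-2 at 213 and Mir26a-1 at 261, and Mir107, Mir103-2 and Mir103-1 at 70, 188 and 307.

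Over all genes, sequence sharing was tabulated for the 916 genes that matched the RefSeq sequence table by symbol. The rule was chosen after the values were seen and gives a description only. The miR-26a copies belonged to 50 genes with an arm that stands in another hairpin and an arm that does not, of which 34 reached 10 counts in both libraries. Their median level was 43.9 CPM, from 4.73 CPM to the 7236 CPM of Mir16-1, and Mir26a-2 stood at place 16 and Mir26a-1 at place 28 among them. Mir26b belonged to the 833 genes with no shared arm, of which 261 were detected with a median of 242.5 CPM. Some genes of a list of multiple copies, described below, were also scored with no shared arm. This class may therefore hold products made at several loci. Whether a shared arm lowers the count of a gene was not tested.

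In 12 groups of genes with a common seed, a mature product made by several loci stood beside a gene with a product of its own, with both kinds detected. The miR-26 group had the largest ratio of these 12 between the highest gene of each kind, 723 by mean CPM for Mir26b over Mir26a-2. The next were 193 for Mir30e over Mir30c-1 and 85.9 for Mir29a over Mir29b-1, and the median over the groups was 16.7. In 10 groups the gene with its own product was higher. The exceptions were Mir92-1 above Mir25, with a ratio of 0.305, and Mir7-1 above Mir7b, with 0.0666. Counts are per gene and so add both arms, and groups that share loci, such as those of the let-7 genes, are not independent. Reads that match several loci were not counted, so the order within a group is partly built into the counting rule. The highest gene was also taken from unequal numbers, such as 8 genes with their own product and 2 sharing in the group of Mir322 and Mir16-1.

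**Figure D5:**
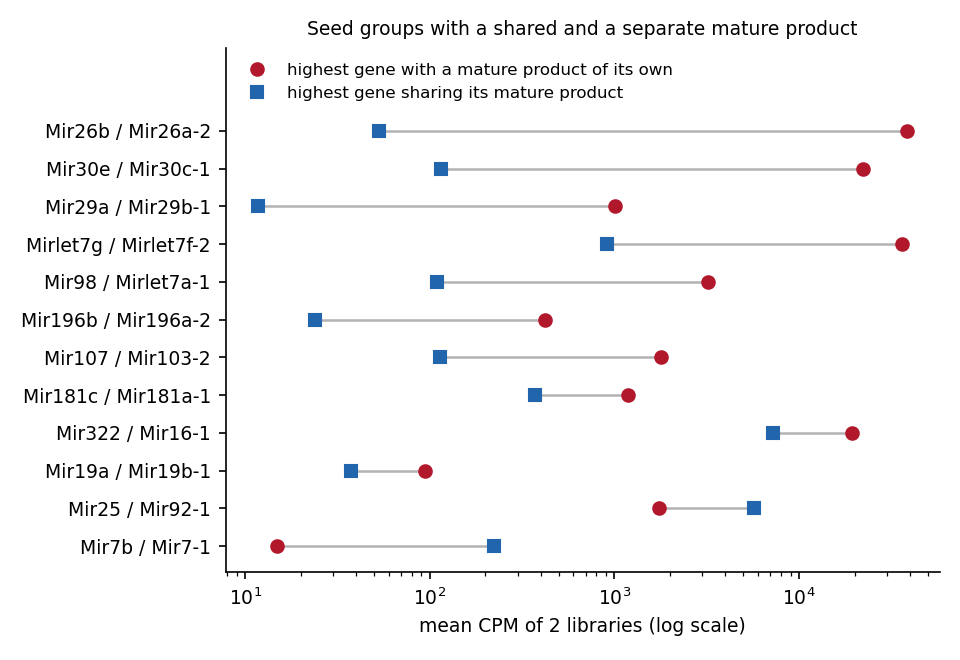
For the 12 seed groups, mean CPM on a log axis of the highest gene with a mature product of its own (circles) and of the highest gene that shares its product with another locus (squares), ordered by their ratio. The miR-26 group at the top has the widest gap, 38616 against 53.4 CPM, and in the lowest 2 groups the order is turned.

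By reads that map to 1 place, Mir26b ranked near the top among other microRNAs in introns of protein-coding genes. A list of 56 such genes was drawn up, of which 53 were measured, 52 of these lay inside a protein-coding gene on its strand by the annotation, and 49 reached 10 counts in both libraries. Only Mir126a (59586 ± 2731 CPM), a microRNA of blood vessel cells in Egfl7, exceeded Mir26b in this list. Mirlet7g in Wdr82 and Mir335 (31747 ± 1380 CPM) in the imprinted Mest gene followed, and the lowest of the 49 was Mir208b with 5.47 ± 1.87 CPM. Of the 49 genes, 13 were higher in replicate 1 and 13 in replicate 2, together 53.1% against 41.9% of all genes, and their median log2 ratio was 0.01. Their median level was 914.9 CPM, against 172.6 CPM over all 332 genes. A second list of 54 genes known as multiple copies also held the miR-101 pair, whose products differ by sequence. Of the 54, 50 were measured, 40 of these had an arm found in another hairpin, and 37 were tested. Of these 37, 12 were higher in replicate 1 and 4 in replicate 2, together 43.2% against 41.9% of all genes (18.4% higher in replicate 1 and 23.5% in replicate 2). Their median log2 ratio was -0.10 and their median level 94.2 CPM. Mir16-1, Mir101b and Mir92-1 (5724 ± 650.1 CPM) led these 37 and Mir181b-1 (4.73 ± 0.0814 CPM) was the lowest of them. Both miR-26a copies lay below the median of the 37.

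The labelled tissue was checked against its microRNAs. The liver cell microRNA Mir122 was the highest gene with 103860 ± 9208 CPM. All 5 hepatocyte, 3 erythroid and 3 endothelial markers were detected, as were 3 of 3 measured white cell markers and 3 of 4 mesenchymal markers. The other mesenchymal marker, Mir199a-1, has both arms in another hairpin. Reads of multiple mapping were not counted, so its low count is not a sign of absence. Between replicate 1 and replicate 2 the summed level of the hepatocyte markers went from 11.3% to 12.6% of counts and that of the erythroid markers from 5.00% to 4.003%. Single markers did not all follow these sums. Mir122 went from 97349 to 110371 CPM and made up most of the hepatocyte sum, while Mir101b was lower in replicate 2. Among the erythroid markers Mir451a and Mir144 were lower in replicate 2 and Mir486 was higher (ratio 1.27, 1.17 to 1.38). The family's own share, without reads of multiple mapping, went from 3.83% to 3.90%. The part of these cell types in the level of the miR-26 genes was not tested.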

How the data were processed

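Small RNA under 30 nucleotides from 2 libraries was analysed. The authors deposited raw read counts per gene, for any strand, the gene's strand and the opposite strand. Per the labels the assembly is mm10, and the deposited notes give annotation M4 and 1 alignment per sample. For the aligner, counter and trimming, details were not given in the sources used here. Totals exclude the rows without a gene. In replicates 1 and 2 these were 34.0% and 33.1% of all reads for multiple mapping, 18.6% and 17.7% for unmapped, 10.6% and 10.4% for no feature, and 0 for ambiguous.

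Symbols, positions and hosts came from GENCODE M21 (GRCm38, the assembly of mm10), which matched 1894 of 1973 IDs. Sequences came from RefSeq (GRCm38.p6). Same-strand counts were scaled to CPM. With 1 group there is no contrast for a count model, so genes reaching 10 counts in both libraries were tested with a two-sided exact binomial test on the library totals (scipy 1.17.1), Benjamini-Hochberg adjusted, calling those under 0.05. Intervals are 95% exact intervals. Log2 ratios add 0.5 to each count, and fold ratios add nothing. Scaling factors came from edgeR 4.0.16 (TMM) and DESeq2 1.42.0. The binomial test and the ratio interval were tried on simulated counts with known folds and counting error only. Other variation between libraries was not simulated.

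The members and lists were chosen with earlier results of these data known. Named genes are the members, the 3 genes nearest to each in level, the Pank family and miR-101 genes, the 3 highest and the lowest tested genes of both lists, genes inside a Ctdsp gene, genes with a member's seed and the highest gene. Other genes named for the seed groups were chosen after their values were seen. Listed genes with no row under their symbol were not analysed here. Alternatives were counts regardless of strand, other totals and scalings, pseudocounts of 0.1 and 10, other minimum counts and leaving out each replicate.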

Additional observations from a re-analysis of the deposited data

How the results depend on the processing

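Levels depend on what they are divided by. Mir26b came to 34782 CPM with counts regardless of strand, 14607 with all reads as the total and 43097 without Mir122 in the total, and the sum of the 3 members to 34847, 14634 and 43177. With all reads as the total Mir26a-2 came to 20.1 and Mir26a-1 to 6.96 CPM. Leaving out each replicate gave 38267 to 38966 CPM for Mir26b. The log2 ratio of Mir26b was 0.0020 by TMM (adjusted p = 0.871 by the exact binomial test) and 0.0049 by DESeq2 size factors (0.603), and its adjusted p ranged from 7.5e-59 to 0.871 over the 11 settings. The log2 ratio of the sum was 0.10 with all reads as the total, 0.047 without Mir122, 0.0014 by TMM and 0.0043 by DESeq2 size factors. The ratios of the miR-26a copies stayed below 0 on the log2 scale and above the threshold in every setting run, with adjusted p from 0.143 to 0.920 for Mir26a-2 and from 0.527 to 1 for Mir26a-1, which had too few counts for a minimum of 100. The number of genes that differed was 139 of 332 tested as reported, 61 higher in replicate 1 and 78 in replicate 2. It ranged from 121 of 1973 with no minimum count to 159 of 332 with all reads as the total. At a minimum of 100 counts it was 130 of 215, so the share called depends on the minimum count. With all reads as the total the split was 36 to 123, and the median log2 ratio of the genes tested was 0.11 instead of 0.03. No paired analysis was possible because there was 1 group. The ratios between the libraries have no value with a replicate left out. Counting error limits the miR-26a copies, and reads within their shared 25-base run were not counted.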
